A study of Bos taurus with 27 samples.

Results

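The genes described here encode the proteins of the cytosolic ribosome, split into those of the large (60S) and the small (40S) subunit, in the rumen epithelium (RE) of cattle. Members were the non-control probes of the array whose gene name starts with RPL or RPS and a digit, or is RPSA, RPLP0, RPLP1 or RPLP2, without the RPS6K kinases, RPL7L1 and the reference gene RPL27. That rule found 85 of 15008 probes. They carried 81 of 14952 gene names, 47 of the large and 34 of the small subunit, and the probe with the highest mean signal stood for a gene that had several. The rule used names only, and no measured value of a comparison. RE biopsies were taken from 9 castrated, rumen-fistulated Japanese Black beef cattle, all kept on a high-concentrate fattening diet, at 14 months (early stage), 21 months (middle stage) and 29 months (late stage) of age. The same 9 cattle were sampled each time, so stage, age and time on the diet cannot be told apart, and no cattle on another diet were on these arrays. The names of the comparisons are those of the study, with the first period running from early to middle, the second period from middle to late and the total period from early to late.

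A ribosome is built from 4 ribosomal RNAs and close to 80 proteins, nearly every one of which is present in a single copy. The small subunit binds the mRNA and decodes it, and the large subunit joins the amino acids and releases the chain through its exit tunnel. The mRNAs of these proteins begin with a terminal oligopyrimidine (TOP) stretch, through which the TOR kinase sets their translation together with that of several elongation factors. In dividing epithelia, including the basal layer of the rumen wall, they are among the most abundant mRNAs.

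Levels are given as log2 of the processed signal with the median of each array set to 0, and differences as log2 fold changes, so a value of 0 means no change relative to that median. Changes were tested with limma with the animal as a block and Benjamini-Hochberg adjustment over all 15008 probes, and a gene was called a differentially expressed gene (DEG) at an adjusted *P* below 0.05. The middle-stage arrays were dimmer than the others, with a median processed signal of 8.22 to 28.7 against at least 35.2 at the early and at least 32.2 at the late stage, and animal 4 had the dimmest of all 27 arrays at the middle stage. Stages also lay on different slides. Slide 1 held 8 early arrays, slide 2 held 1 early and 7 middle arrays, slide 3 held 2 middle arrays, and slides 4 and 5 held the late arrays alone, so for the second and total periods slide and stage cannot be told apart. For the first period they are told apart only through animal 8, whose middle array was on slide 3, and animal 9, on slides 2 and 3. Of 23 measured markers of stratified epithelium, all but 1 were well above background on some array of each stage. Their summed log2 level was 11.9 to 12.4 at the early, 10.2 to 12.3 at the middle and 12.2 to 12.5 at the late stage. Of the 23 epithelium markers 4 rose and 10 fell in the first period. Of 10 endothelium markers 4 rose and 1 fell, of 15 leukocyte markers 5 and 2, and of 10 fibroblast markers 2 and 2. Smooth muscle markers (9 measured, summed level 6.84 to 8.63, then 6.69 to 9.76, then 6.99 to 7.75) rose in 5 and fell in none during the first period and fell in 8 during the second. Among all probes 45.3% were called higher and 21.2% lower in the first period, and 26.7% and 44.8% in the second. Red blood cell markers rose in 5 of 7 during the first period, with a summed level of 5.30 to 6.10 at the early and 6.71 to 7.62 at the middle stage, where 4 of the 7 were not above background on any array. Their part in the results was not tested, and in tissue fewer cells of a type and less RNA per cell cannot be told apart.

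How far a gene could be read depended on its probe. Of the 81 genes, 42 had a probe designed on a RefSeq transcript, 10 on another GenBank mRNA, 1 on an Ensembl transcript and 28 on an expressed sequence tag (EST). A probe well above background on all 27 arrays was available for 56 genes, 34 of the large and 22 of the small subunit. They were 40 of the 42 genes with a RefSeq target, all 10 with a GenBank target, the gene with an Ensembl target and 5 of the 28 with an EST target. All 12 small subunit genes with EST targets were outside that set. EST probes began at a median base of 925.5 of their target, against 453.5 for RefSeq probes. Statements on direction below rest on the 56 genes unless another set is named.

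The probes that the results turn on are printed here from the deposited scanner output, 5′ to 3′ in the sense of the mRNA, with bosTau6 (UMD 3.1) coordinates as the array design gives them. The first pair marks the list, and the first 50 of their 60 bases are shown with the polyadenylation signal AATAAA in capitals. RPS19, whose protein sits on the head of the small subunit, is read on the minus strand at chr18:51689627-51689686. RPL21 of the large subunit is read on the minus strand at chr12:32853820-32853879.
RPS19: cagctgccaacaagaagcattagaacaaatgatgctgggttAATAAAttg
RPL21: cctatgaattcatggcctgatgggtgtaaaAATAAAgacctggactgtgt

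A set of 4 whole probes belongs to genes that fell most in the middle stage. The RPSA probe spans chr22:12729853-12731027 on the plus strand, a stretch longer than the probe, as the design writes a probe that crosses an intron. The RPL15 probe is placed at chr27:41930630-41930670 on the minus strand, which covers 41 of its 60 bases. RPS2 lies on the minus strand at chr25:1521711-1521770, and RPL13A on the plus strand within chr18:56396528-56396791.
RPSA: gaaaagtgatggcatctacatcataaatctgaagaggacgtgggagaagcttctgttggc
RPL15: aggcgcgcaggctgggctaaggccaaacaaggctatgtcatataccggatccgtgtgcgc
RPS2: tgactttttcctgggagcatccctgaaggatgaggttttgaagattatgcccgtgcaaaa
RPL13A: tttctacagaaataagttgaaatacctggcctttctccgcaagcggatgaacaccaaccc

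RPS20 and RPS13 each had 2 bright probes on the same RefSeq transcript, which are shown because they gave different values for a single mRNA. The RPS20 probes lie on the minus strand at chr14:24955149-24955208 and chr14:24955099-24955158 and share 10 bases, printed in capitals. The RPS13 probes lie on the plus strand at chr15:35944816-35944875 and within chr15:35945285-35945953.
RPS20, nearer the start: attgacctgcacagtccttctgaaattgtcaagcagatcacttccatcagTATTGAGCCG
RPS20, nearer the end: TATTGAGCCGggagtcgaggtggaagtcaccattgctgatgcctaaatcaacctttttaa
RPS13, nearer the start: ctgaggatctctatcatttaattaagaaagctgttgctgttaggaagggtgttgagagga
RPS13, nearer the end: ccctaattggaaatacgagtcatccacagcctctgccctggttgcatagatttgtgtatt

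During the first period most large subunit genes rose relative to the array median and the small subunit was divided. Of the 34 bright large subunit genes 21 rose, 3 fell and the other 10 did not pass the test. Of the 22 bright small subunit genes 9 rose and 6 fell. Among all probes well above background on all arrays, 34.9% were called higher and 26.9% lower, 61.8% in all. Median changes were 0.39 in the large and 0.15 in the small subunit, against 0.08 over those probes. Over all 81 genes 47 were called higher and 13 lower, with 45.3% of all 15008 probes called higher and 21.2% lower, 66.5% in all. Those 47 include 17 of the 25 genes without a bright probe, 4 of them never above background. The upward direction of the family depended on scaling. Quantile normalization gave 12 higher and 4 lower in the large and 1 higher and 9 lower in the small subunit, cyclic loess 17 and 4 against 6 and 8, and normexp background correction turned both subunits to more falls than rises, with 2 and 4 against 1 and 6. With 75th percentile scaling the counts were 22 and 3 against 9 and 6. Normexp correction added an offset of 50 to each signal before centering on the array median. The median processed signal was at most 48.6 on early, 28.7 on middle and 47.0 on late arrays. The offset exceeds each of these and makes up a larger share of the signal on the dimmer middle-stage arrays. Its part in the normexp counts was not tested. In this period the median of all probes was 0.33 under median scaling and shifted by -0.24, -0.31 and -0.20 under quantile, loess and normexp.

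**Figure D1:**
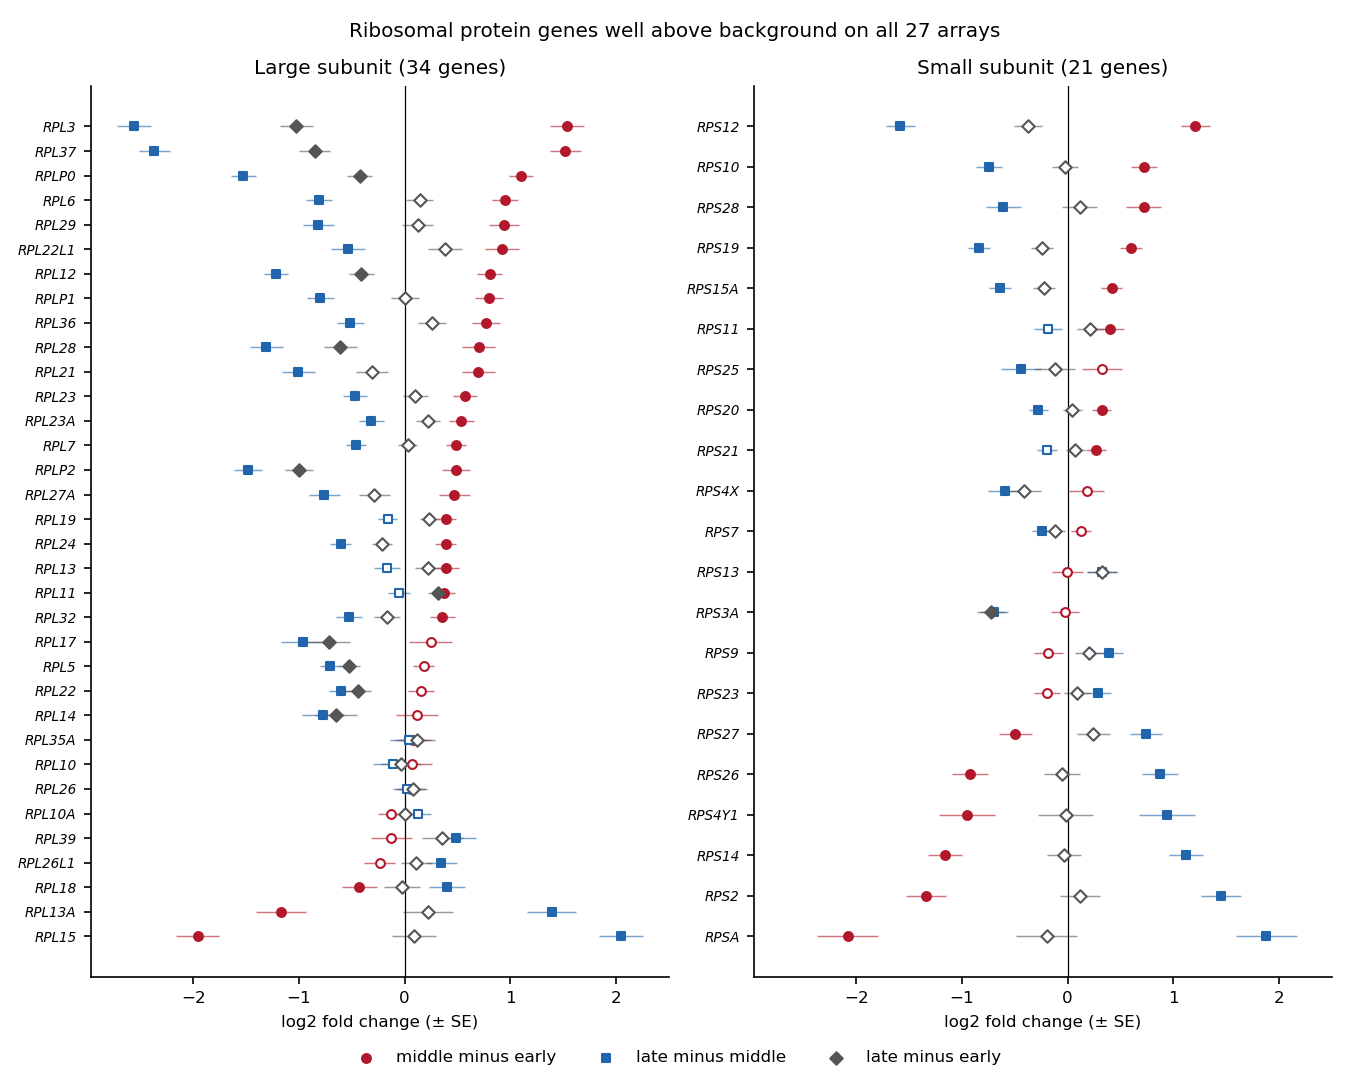
Log2 fold change with its SE (x axis) of 34 large and 21 small subunit genes (rows) for the first, second and total periods, with array medians set to 0. Filled symbols passed an adjusted *P* of 0.05. The large subunit holds 21 filled rises and 3 filled falls in the first period and the small subunit drawn here 8 and 6, and normexp correction leaves 2 and 1 of the rises.

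In the second period the directions were the other way around. Of the large subunit genes 22 fell and 5 rose, and of the small subunit genes 11 fell and 8 rose, beside 30.7% lower and 37.4% higher, 68.0% in all, among all bright probes. Medians were -0.53 in the large and -0.22 in the small subunit and 0.09 over those probes. Here too the scaling mattered, since normexp correction gave 6 falls and 9 rises in the large and 1 fall and 11 rises in the small subunit, and quantile normalization 20 and 4 against 6 and 9. Over all 81 genes 50 were called lower and 17 higher, with 44.8% of all probes lower and 26.7% higher, 71.5% in all. The first and second periods share the 9 middle-stage arrays, so opposite signs between them are not independent of each other. Over the total period 10 large subunit genes were lower and 1 was higher, and 1 small subunit gene was lower, where 7.99% of the bright probes were called lower and 17.6% higher, 25.6% in all. Over all 81 genes 14 were called lower and 3 higher, with 9.01% of all probes lower and 11.0% higher, 20.0% in all.

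**Figure D2:**
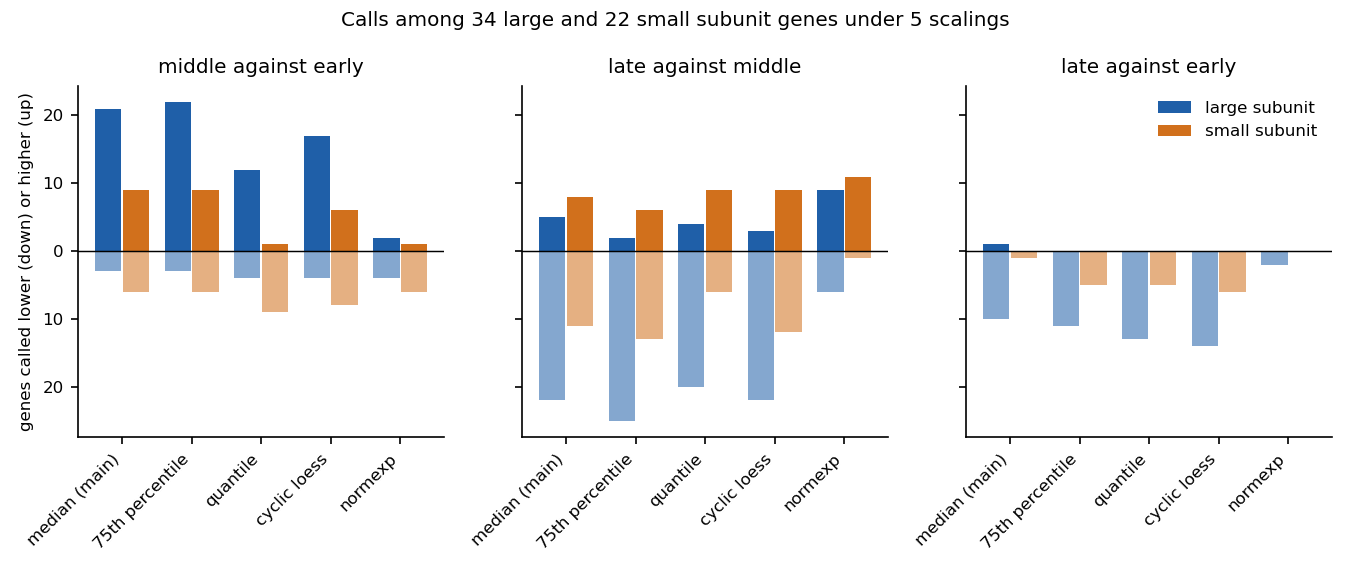
Number of genes called higher (bars above 0, y axis) or lower (paler bars below 0) among 34 large and 22 small subunit genes in each period, under 5 scalings of the arrays (x axis). In the first period the large subunit rises number 21 under median scaling, 12 under quantile normalization and 2 under normexp correction, while small subunit falls number 6 to 9 in all 5.

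The difference between the subunits was less dependent on scaling than the level of either. It was taken within each animal as the mean log2 change of the large minus that of the small subunit genes, and is described without a test. Over all 81 genes it was 0.33 ± 0.19 (SD, n = 9 cattle) in the first period, with 0.46 in the large and 0.13 in the small subunit. Those means include the 25 genes without a bright probe, 4 of them never above background. The large subunit had the higher change in 9 of 9 cattle, from 0.18 to 0.82. In the second period the difference was -0.37 ± 0.20 and negative in 9 of 9 cattle, and in the total period it was -0.03 ± 0.13, positive in 4 and negative in 5. Over the 56 bright genes it was 0.41 ± 0.22 and -0.51 ± 0.20, each with its sign in 9 of 9 cattle. In the total period it was -0.10 ± 0.05 in these genes, negative in 9 of 9 cattle. With the median over genes in place of the mean, the bright genes gave 0.27 ± 0.14 (positive in 8 of 9 cattle), -0.34 ± 0.13 (negative in 9 of 9) and -0.00 ± 0.05 (positive in 3 and negative in 6).

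Across the 5 scalings the difference over the bright genes ranged from 0.37 to 0.48 in the first and from -0.57 to -0.48 in the second period. Only quantile normalization (0.48 and -0.57), cyclic loess (0.47 and -0.55) and normexp correction (0.37 and -0.48) could change it by more than a trace. Leaving out animal 4, the farthest from the rest in both periods, gave 0.35 and -0.45. With slide fitted as a fixed block, stage and slide are told apart only through animals 8 and 9. That fit gave a first-period difference of 0.40 over all members and 0.01 over the bright ones, with little precision. Within slide 2, whose early stage is a single array, the difference was 0.48 and 0.35. The part of slides was not tested. The difference also depended on the kind of probe. Over the 22 large and 18 small subunit genes with bright RefSeq probes it was 0.26 ± 0.25, positive in 8 of 9 cattle, then -0.23 ± 0.24, negative in 8 of 9, and 0.02 ± 0.03 in the total period.

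**Figure D3:**
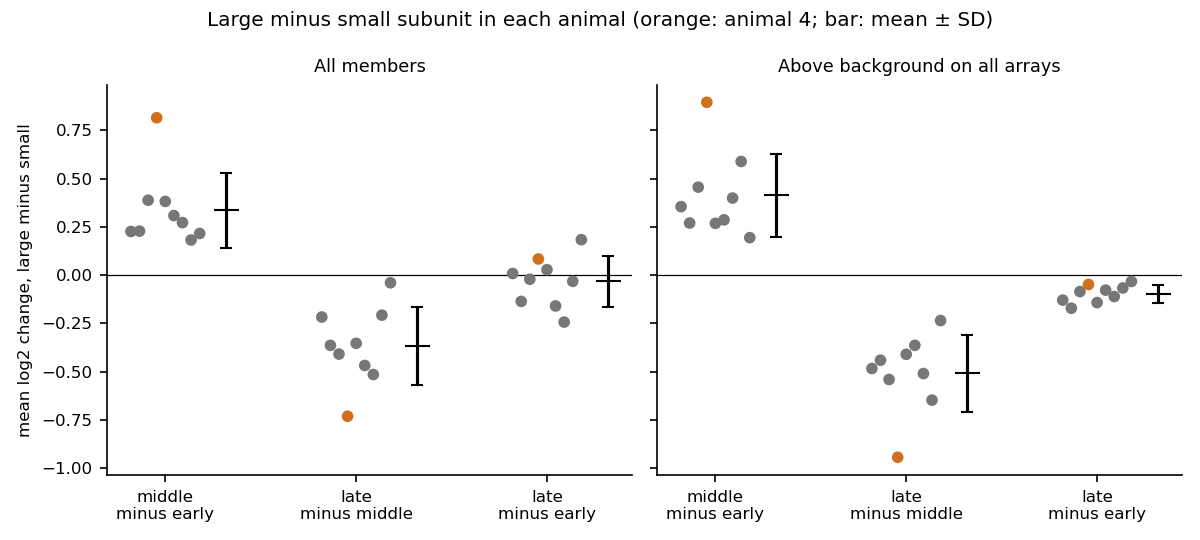
Mean log2 change of large minus small subunit genes (y axis) in each of 9 cattle (points) for the 3 periods (x axis), over all members and over members well above background on all arrays, with the mean and SD beside the points. All first-period points lie above 0 and all second-period points below 0. Animal 4, in orange, is the highest in the first and the lowest in the second period.

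RPS19 and RPL21, the markers of the list, followed the same course in most animals. RPS19 is required for maturation of the 18S ribosomal RNA. Its level was 10.55 at the lowest, 10.82 at the median and 11.08 at the highest animal in the early stage, 11.00, 11.35 and 11.85 in the middle stage, and 10.43, 10.51 and 10.74 in the late stage. The middle-stage values lay above all late-stage values and overlapped the early ones at the edge. RPS19 rose by 0.60 ± 0.10 (SE) in the first period (9 of 9 cattle, limma adjusted *P* = 8.17e-05) and fell by 0.84 ± 0.10 in the second (9 of 9 cattle, limma adjusted *P* = 1.34e-06), while the total change was -0.24 (limma adjusted *P* = 0.114). The first-period call was lost under quantile normalization (0.01) and normexp correction (0.17).

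RPL21, a protein of the large subunit surface, had early-stage levels of 10.24 to 10.71 with a median of 10.40, middle-stage levels of 10.14 to 12.02 with a median of 11.34, and late-stage levels of 9.92 to 10.34 with a median of 10.06. The ranges of the 3 stages overlapped, and animal 8, the single animal whose level did not rise in the first period, had the lowest middle-stage value. RPL21 rose by 0.70 ± 0.15 in the first (8 of 9 cattle, limma adjusted *P* = 0.000619) and fell by 1.00 ± 0.15 in the second period (9 of 9 cattle, limma adjusted *P* = 1.31e-05). Its first-period change was 0.22 under quantile normalization and 0.05 under normexp correction, neither of which passed the test.

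The P stalk, the flexible arm of the large subunit that recruits elongation factors, had all of its 4 members called higher in the first and lower in the second period under median scaling, the former under every scaling but normexp correction. RPLP0 is the base of the stalk and carries the RPLP1 and RPLP2 dimers, and RPL12 anchors it to the subunit. RPLP0 levels were 3.50 to 4.03 at the early stage (median 3.87), 4.34 to 5.56 at the middle (median 5.02) and 3.22 to 3.62 at the late stage (median 3.29). The middle-stage values did not overlap with those of either other stage. RPLP0 rose 2.14-fold in the first period (log2 1.10 ± 0.12, limma adjusted *P* = 5.24e-07) and fell by 1.52 ± 0.12 on the log2 scale in the second (limma adjusted *P* = 4.21e-09).

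RPLP1 levels were 10.26 to 10.67 (median 10.50) at the early, 10.73 to 12.24 (median 11.28) at the middle and 10.31 to 10.80 (median 10.50) at the late stage. Its middle-stage values lay above all early ones and above all late ones but the highest. It rose by 0.80 ± 0.13 and fell by 0.80 ± 0.13, in 9 of 9 cattle each time, and ended at its early level. RPLP2 went from 4.58 to 4.86 (median 4.68) through 4.75 to 5.91 (median 4.94) to 3.35 to 4.29 (median 3.55). It rose by only 0.48 ± 0.13 but fell by 1.48 ± 0.13, so that its late stage lay below every early value, with a total change of -0.99 (limma adjusted *P* = 2.87e-05). RPL12 rose by 0.81 ± 0.12, fell by 1.21 ± 0.12 and was 0.41 lower in the total period on the log2 scale. With normexp correction none of the 4 first-period rises passed the test (0.44, 0.34, -0.00 and 0.29 for RPLP0, RPLP1, RPLP2 and RPL12), whereas the second-period falls of RPLP0, RPLP2 and RPL12 passed under all 5 scalings.

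RPL5 and RPL11, which enter the large subunit together with the 5S ribosomal RNA and bind MDM2 when they are free, moved apart over the total period. RPL5 levels were 5.63 to 6.05 (median 5.75), 5.53 to 6.35 (median 5.89) and 5.03 to 5.69 (median 5.15) at the early, middle and late stages. It had a first-period change of 0.18 (limma adjusted *P* = 0.115), fell by 0.70 ± 0.10 in the second period (9 of 9 cattle, limma adjusted *P* = 5.5e-06) and was lower over the total period by a log2 change of -0.52 ± 0.10 (9 of 9 cattle, limma adjusted *P* = 0.00103). RPL11 levels were 10.36 to 10.74 (median 10.55) and 10.43 to 11.28 (median 10.86) at the early and middle stages and 10.71 to 11.03 (median 10.83) over 8 late arrays, the ninth spot being an outlier that the fit left out. RPL11 was the only bright gene of the list called higher over the total period (0.32 ± 0.10, 8 of 8 cattle, limma adjusted *P* = 0.0341). That call was lost without any of 6 of the cattle, and under 75th percentile scaling, quantile normalization, cyclic loess and normexp correction, with values of 0.12 to 0.36. It also rested on the outlier spot, since with such spots kept the change was 0.05 and not called, and with series matrix values it was -0.06.

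Only 3 bright genes rose in the first period under all 5 scalings, namely RPL3, RPL37 and RPS12. RPL3 reaches from the surface of the large subunit to the peptidyl transferase centre. Its levels were 1.57 to 2.12 (median 1.92) at the early, 2.66 to 4.35 (median 3.57) at the middle and 0.58 to 1.08 (median 0.86) at the late stage. No 2 stages overlapped. RPL3 rose 2.90-fold (log2 1.53 ± 0.16, limma adjusted *P* = 3.64e-07), then fell by 2.56 ± 0.16 on the log2 scale (limma adjusted *P* = 2.71e-10), and ended lower by a log2 change of -1.02 ± 0.16 (limma adjusted *P* = 0.000155).

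RPL37, a small zinc-binding protein of the large subunit, had levels of 0.85 to 1.56 (median 1.15), 2.05 to 3.50 (median 2.64) and 0.03 to 0.52 (median 0.38), again without overlap between stages. It rose by 1.52 ± 0.15, fell by 2.37 ± 0.15 and had a total change of -0.85 ± 0.15, each in 9 of 9 cattle. RPS12, on the beak of the small subunit head, had levels of 2.30 to 3.99 (median 3.04), 3.73 to 5.02 (median 4.38) and 1.95 to 3.36 (median 2.89), so that its early and middle ranges overlapped although it rose in every animal. It rose by 1.21 ± 0.14 (limma adjusted *P* = 9.22e-07) and fell by 1.58 ± 0.14 (limma adjusted *P* = 1.34e-08). None of these 3 probes had a RefSeq target.

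Other rises of 9 of 9 cattle under median scaling included those of RPL6 (0.95 ± 0.13), RPL29 (0.94 ± 0.14) and RPL36 (0.77 ± 0.13) in the large subunit. In the small subunit they included that of RPS10 (0.72 ± 0.12). RPS10 lies at the mRNA entry side of the head. RPS28, next to the mRNA exit, rose by 0.72 ± 0.16 in 8 of 9 cattle. None of these calls held under every scaling.

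**Figure D4:**
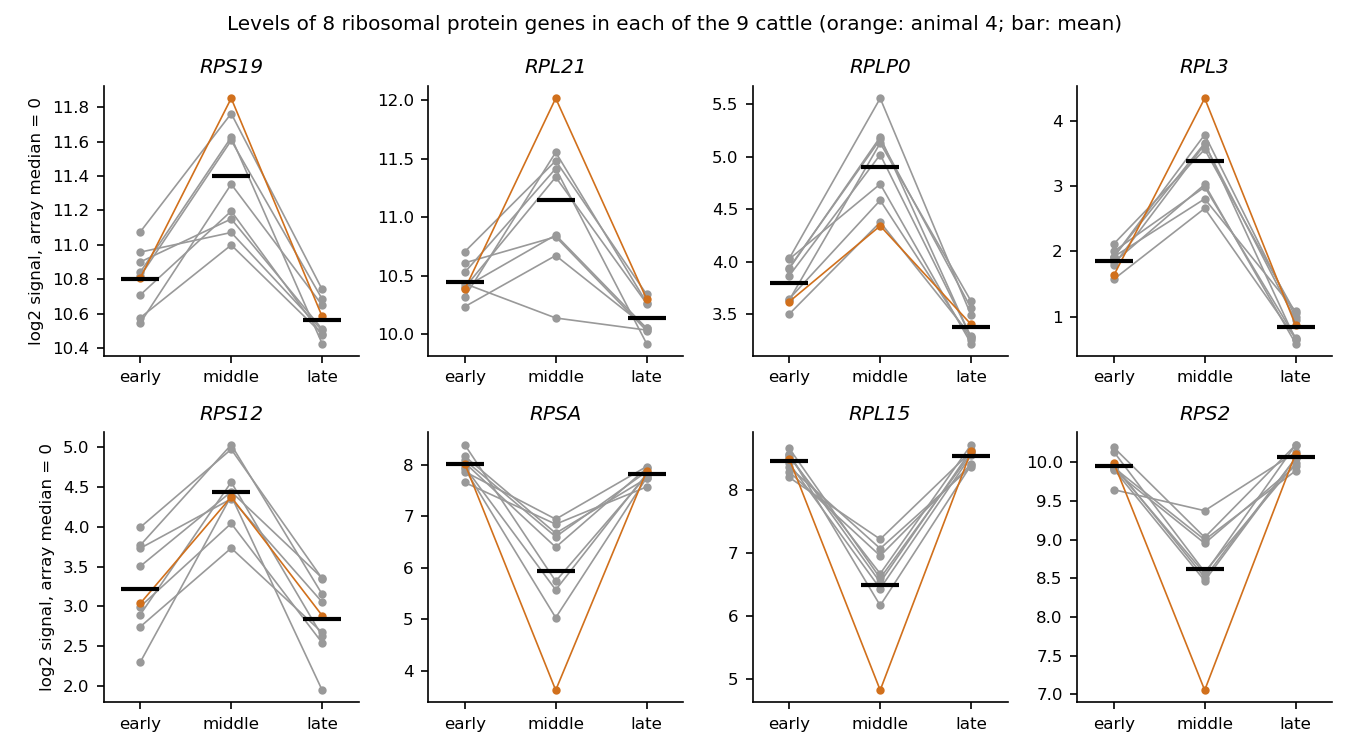
Log2 signal with the array median at 0 (y axis, a separate range for each gene) of 8 genes in the 9 cattle at the 3 stages (x axis), with lines joining an animal, animal 4 in orange and bars at the mean. RPS19, RPL21, RPLP0, RPL3 and RPS12 peak at the middle stage, although by the test the first 2 did not rise under quantile or normexp scaling nor RPLP0 under normexp, and RPSA, RPL15 and RPS2 have their lowest values there in every animal.

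The genes that fell in the first period formed a smaller set, and their direction did not depend on scaling. All 9 bright genes called lower, 3 of the large and 6 of the small subunit, were called lower under all 5 scalings. RPSA, which lies at the mRNA exit and is also known as the laminin receptor precursor, had levels of 7.66 to 8.39 (median 8.03) at the early, 3.62 to 6.95 (median 6.40) at the middle and 7.57 to 7.97 (median 7.83) at the late stage. The middle-stage values lay below all others in each animal and spread far more widely. RPSA fell 4.22-fold (log2 -2.08 ± 0.29, 9 of 9 cattle, limma adjusted *P* = 8.67e-06) and then rose 3.68-fold (1.88 ± 0.29, 9 of 9 cattle, limma adjusted *P* = 1.38e-05).

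RPL15, a protein deep in the large subunit, had levels of 8.20 to 8.66 (median 8.49), 4.82 to 7.22 (median 6.60) and 8.37 to 8.72 (median 8.58), with the middle stage apart from the others. It fell by 1.96 ± 0.20 in the first and rose by 2.05 ± 0.20 in the second period, in 9 of 9 cattle (limma adjusted *P* = 4.01e-07 and 8.87e-08). RPS2, at the mRNA entry of the small subunit, had levels of 9.64 to 10.19 (median 9.94), 7.06 to 9.37 (median 8.58) and 9.89 to 10.22 (median 10.05). It fell by 1.34 ± 0.19 and rose by 1.45 ± 0.19 without overlap between the middle and either other stage.

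RPS14, which lines the mRNA exit channel, fell by 1.16 ± 0.16 and rose by 1.12 ± 0.16, and RPS26, its neighbour there, fell by 0.92 ± 0.17 and rose by 0.87 ± 0.17. For both genes the middle-stage values of 6.95 to 8.89 and 5.63 to 7.72 lay below all early values, 9.26 to 9.67 and 7.83 to 8.32. The RPS14 values are those of its probe with the highest mean signal. Averaging the probes of RPS14 turned the sign of both changes, to 0.37 from early to middle and -0.35 from middle to late. The direction of RPS14 thus depended on the probe, although not on scaling. RPL13A, a protein that is released from the ribosome in the interferon response, fell by 1.17 ± 0.24 in 8 of 9 cattle, from 8.45 to 8.99 at the early to 5.72 to 8.88 at the middle stage. RPS4Y1 (-0.96 ± 0.26), RPS27 (-0.49 ± 0.15) and RPL18 (-0.43 ± 0.17) fell in 8 of 9 cattle each, with overlapping stages. In all of these the total change did not pass the test and ranged from -0.20 to 0.24.

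The dim middle-stage array of animal 4 had the lowest level of RPSA, RPL15, RPS2, RPS14, RPS26 and RPS27. Without animal 4 the first-period change was -1.79 for RPSA and -1.74 for RPL15, both still called, while that of RPL18 went to -0.28 and lost its call. The RPL18 call was also lost without 5 other cattle. With slide as a fixed block the first-period change rests on animals 8 and 9 to tell stage from slide, so few probes could be called. No member was called in that fit, and 18 (22.2%) had an unadjusted *P* below 0.05. Of all probes 1 was called and 17.6% had such a *P*. RPSA then had a change of -0.06, and RPL15 decreased by 1.00 without passing the test. The part of slides in these falls was not tested. Within slide 2 a single early array stood for that stage, so no counts are read from it.

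Over the total period RPL3 and RPL37 were the 2 bright genes lower under all 5 scalings. With slide as a random block the calls of both were lost, and 1 bright gene was called lower. Slide and stage cannot be told apart in this period. RPS3A, a small subunit protein near the mRNA exit, had early levels of 9.43 to 9.89 (median 9.64) and late levels of 8.70 to 9.24 (median 8.87) that did not overlap. It was the only bright small subunit gene called over that period (-0.73 ± 0.13, lower in 9 of 9 cattle, limma adjusted *P* = 0.000746), and its middle level of 8.78 to 10.16 overlapped both. RPL17 (-0.71 ± 0.20) at the exit tunnel, RPL14 (-0.65 ± 0.20), RPL28 (-0.61 ± 0.15) and RPL22 (-0.44 ± 0.12) were also lower in 9 of 9 cattle. The call was lost for RPL14 without any of 5 of the cattle, for RPLP0 without animal 2 and for RPL12 without animal 5. None of RPS3A, RPL17, RPL14, RPL5 and RPL22 was called in the first period.

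Grouped by place on the ribosome, the counts below are those of median scaling. Of 6 bright genes of its head, which holds RPS19, RPS12, RPS10 and RPS28, 5 rose and none fell in the first period (median 0.66), and all 6 fell in the second (median -0.67). With quantile normalization 1 of the 6 rose and 3 fell in these periods, and with normexp correction 1 rose and 1 fell, with second-period medians of -0.26 and 0.19. Of 15 bright genes of its body and platform, which hold RPSA, RPS2, RPS14 and RPS26, 4 rose and 5 fell in the first (median -0.03), and 7 rose and 5 fell in the second period (median 0.29). In the first period none rose and 8 fell there with quantile normalization and none rose and 5 fell with normexp correction. Of 6 bright genes around the exit tunnel of the large subunit, 2 rose and none fell in the first period, and 3 fell and 1 rose in the second. Among the bright probes of the whole array 34.9% were called higher and 26.9% lower in the first period, and 37.4% and 30.7% in the second. Their medians were 0.08 and 0.09. The first-period counts of the body and platform, and the first-period rises around the exit tunnel, lie near those shares. These groups were drawn from textbook positions, and the counts are a description of few genes.

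For the 25 genes without a bright probe less can be said. RPS3, RPL38 and RPL37A were among those not well above background on any array. Differences between values below background have no fold, and none is given. RPS6, the substrate of the S6 kinases, was well above background on 2 late arrays and on none of the others, with levels of -4.64 to -2.89, -3.95 to -2.11 and -5.13 to -2.63, and no fold is given either. The same holds for RPL30, RPS27A, RPS15, RPS18, RPL35 and RPL3L, each above background on at most 7 arrays and on none of at least 1 stage.

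Others of these 25 were read on nearly all arrays. RPS24, on the small subunit body, was above background on 26 arrays, with levels of 1.40 to 2.20 (median 1.56), -0.67 to 1.67 (median 0.67) and 1.28 to 2.27 (median 1.73). It fell by 1.22 ± 0.19 and rose by 1.32 ± 0.19, in 9 of 9 cattle both times. RPL9 (25 arrays) had the largest rise of the 81 genes in the total period, 1.23 ± 0.22 in 9 of 9 cattle (limma adjusted *P* = 0.000735), from -1.14 to -0.58 at the early to 0.01 to 0.53 at the late stage without overlap. RPL7A (25 arrays) rose by 0.65 ± 0.18 over the total period in 9 of 9 cattle, and RPS29 (26 arrays) was lower over that period by a log2 change of -0.61 in 9 of 9. RPL36A (24 arrays) fell by 0.70 ± 0.16 in the first period, opposite to most of its subunit.

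The list also holds 5 paralogs and a gene of another function. RPL22L1, a paralog of RPL22, rose by 0.92 ± 0.16 in the first period where RPL22 had a change of 0.16, and RPL26L1 had a first-period change of -0.24 beside 0.06 for RPL26. RPL3L, the striated muscle paralog of RPL3, was above background on 2 arrays. RPS27L was above background on 18 arrays. RPS4Y1, a paralog of RPS4X, is among the small subunit genes called lower in the first period above. Paralogs share sequence, and cross-hybridisation of their probes was not tested. RPS19BP1 encodes a binding protein of RPS19 and no part of the ribosome. Leaving these 6 out gave 43 genes higher and 12 lower in the first period and a difference between subunits of 0.32.

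Within the list the first-period change varied with where a probe lies on its mRNA. Of the 7 bright RefSeq probes that begin before base 300 of their target, 1 rose and 5 fell (median -0.49). Of 14 that begin from base 300 to before base 500, 9 rose and 1 fell (median 0.37), and of 19 that begin at base 500 or later 10 rose and 1 fell (median 0.37). Among all bright probes of the array 34.9% were called higher and 26.9% lower in this period. The probes of RPSA, RPL15, RPL13A and RPS2 begin at bases 150, 180, 159 and 306. Across these 40 genes, which share arrays and are not independent, Pearson's r between the first base and the change was 0.55 and Spearman's rho 0.43. The change also went with the mean signal of the probe (r 0.51, rho 0.71) and with its GC content (r -0.34, rho -0.24). Over all 5664 bright RefSeq probes of the array r was 0.08 for position, -0.11 for signal and 0.14 for GC content.

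**Figure D5:**
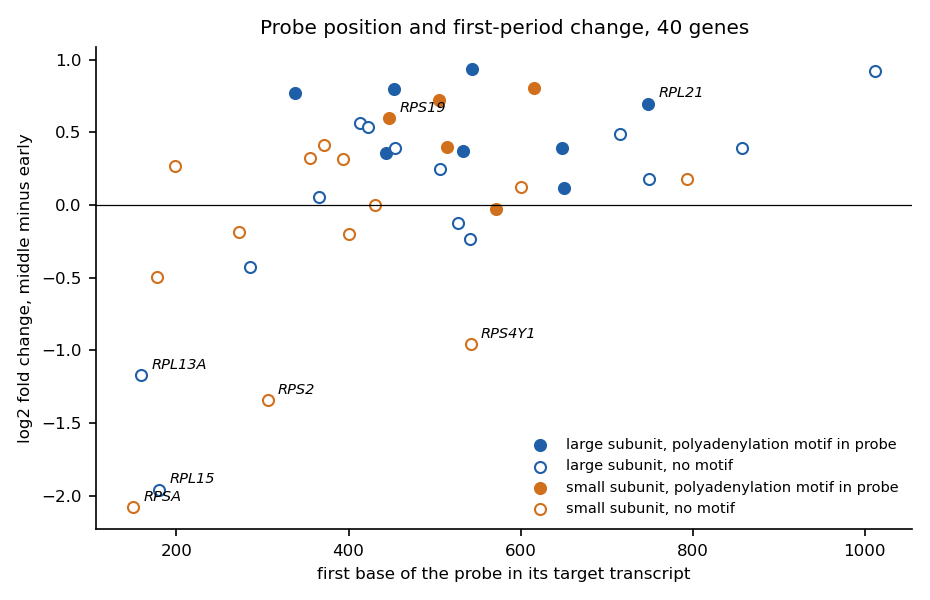
First-period log2 fold change (y axis) of 40 ribosomal protein genes with bright RefSeq probes against the first base of the probe in its target transcript (x axis), with filled points for probes that hold AATAAA. The 4 lowest points are probes that begin at bases 150 to 306.

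Probes that reach the polyadenylation signal differed from the rest in the same sense. AATAAA, searched on the printed strand only, was found in 17 of the 56 bright member probes (30.4%) and in 14.3% of all bright probes. Of the 17 genes 15 rose and none fell in the first period (median 0.70), while of the other 39 genes 15 rose and 9 fell (median 0.16). Among all bright probes of the array 34.9% were called higher and 26.9% lower in that period, and the medians were 0.18 with and 0.05 without the motif. Among large subunit genes 11 of 34 and among small subunit genes 6 of 22 probes held it. Within the probes without the motif the difference between the subunits was 0.47 ± 0.22, and within those with it 0.16 ± 0.16.

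Probes of the same mRNA gave different values too. The RPS13 probe that begins at base 277 had a first-period change of -0.68 and the one at base 431 a change of -0.00, a difference of 0.68 ± 0.36 (SD) with the same sign in 9 of 9 cattle. The RPS20 probes at bases 344 and 394, printed above, had changes of 0.11 and 0.32, and differed by 0.21 ± 0.29 with the same sign in 8 of 9 cattle. RPL27, left out of the list as a reference gene, had RefSeq probes at bases 300 and 415 with changes of -0.36 and 0.31. Another RPL27 probe between them, at base 389, had 0.33. In each of the 6 targets of the array with several bright probes, which also include GAPDH, ACTB and OAZ1, the last probe had a higher first-period change than the first probe. What part probe position has in the difference between genes was not tested.

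Genes that build or regulate ribosomes did not move as a single block. FAU, which encodes RPS30 fused to a ubiquitin-like protein, rose by 0.31 in the first period. RACK1, listed under its older name GNB2L1, was above background on 6 arrays. RPL7L1, a nucleolar relative of RPL7, fell by 2.06 and rose by 2.23. Among all bright probes 34.9% were called higher and 26.9% lower in the first period, and 37.4% and 30.7% in the second. Of 12 bright genes of RNA polymerase I transcription 8 rose and none fell in the first period, among them UBTF (1.68), and 7 fell and 1, POLR1D (0.80), rose in the second. Of 37 bright genes of large subunit assembly 11 rose and 9 fell in the first period, from DDX27 at 1.34 to EIF6 at -1.82, and EIF6, which keeps the subunits from joining, rose by 1.62 in the second. Of 39 bright genes of small subunit assembly 12 rose and 9 fell, with RIOK3 at 1.14 and PNO1 at -1.06 at the ends. The first-period counts of both assembly lists lie near the shares over all bright probes.

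Other mRNAs with a TOP stretch mostly fell in the first period under median scaling. Of 15 bright ones 3 rose and 10 fell in the first period (median -0.70), and 10 rose and 3 fell in the second (median 0.62), beside 34.9% higher and 26.9% lower, then 37.4% and 30.7%, among all bright probes. EEF1A1, which brings transfer RNAs to the ribosome, fell by 1.97 and rose by 1.77, and NAP1L1 was at the other end with 1.47 and -2.01. Of 16 bright genes of the TOR pathway and its S6 kinases 6 rose and 6 fell in the first period, from TSC1 at 0.66 to RHEB at -1.24, and RRAGA rose by 1.39 in the second. EIF4EBP1, a repressor of cap-dependent translation, was the most raised of them in the total period at 0.79.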

How the data were processed

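Total RNA of 27 RE biopsies, 9 cattle at 3 stages, was labeled with cyanine 3 and hybridised to single-colour arrays. The deposited intensity values are the background-subtracted processed signals of Agilent Feature Extraction 11.0.1.1 per the file headers (9.5 per the labels). The deposited log2 values of the series matrix were compared with log2 signal minus the 75th percentile of each array, over probes with a single spot. The median difference per array was at most 0.0806 and its SD over probes at most 0.0286. The deposited log2 values were used as an alternative only. With R 4.3.3, limma 3.58.1 and Python 3.11.15, log2 processed signals were centered on the array median, spots of a probe were averaged, and outlier spots were left missing (RPL24 on 1 middle-stage array, RPL11 on 1 late-stage array). No spot was saturated. The fit held 3 stage means and 9 animals over all 27 arrays, with Benjamini-Hochberg adjustment over 15008 probes and a threshold of 0.05. A probe counted as bright when all its spots were flagged well above background on all 27 arrays, which 6797 probes were.

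Animals pair the arrays, since biopsies came from the same cattle throughout. The running number at the end of each sample title was taken as the animal. The titles do not say that a number names the same animal at each stage, and all counts of cattle rest on this. Deviations from stage means correlated by 0.158 on average over 27 same-animal pairs (range -0.151 to 0.461, above 0 in 24) and by -0.020 between different cattle. Precision is limited by 9 arrays per stage and, at the middle stage, by signal over background.

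Members, gene lists and tests were chosen with earlier results of these data known. Genes named are any members, with per comparison and subunit the 3 largest changes in either direction seen in all 9 cattle, and of other lists the most raised and lowered gene. The latter was taken among bright probes after the values were seen. Gene names were kept as the array design has them. Alternatives were 4 other scalings, only bright probes, outlier spots kept, series matrix values, no replicate block, slide as a block, slide 2 alone, the methods' t-test (a paired test per probe), the mean of a gene's probes, canonical genes only, and each animal left out. Normexp correction used an offset of 50. The subunit difference over bright genes and the counts over RefSeq targets were alternatives chosen after seeing the data. RPL41 is not analysed here, and single values of some members and related genes are not reported here, although counts and means include them.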

Additional observations from a re-analysis of the deposited data

Results flagged for a closer look

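Of 132 groups of 9 arrays looked at for a single array far from the others, 13 had one, where chance gives about 1 in 20. The middle-stage array of animal 4, the dimmest of all, accounted for 8. It had the lowest levels of RPS2 (7.06, next 8.47), RPL15 (4.82, next 6.17), RPS14 (6.95, next 8.13), RPS26 (5.63, next 6.81) and RPS27 (8.22, next 9.12). It had the highest levels of RPL36 (12.07, next 11.36) and RPL7A (0.60, next -0.63), and the highest mean level of large minus small subunit genes over bright probes (-0.92, next -1.32). The part of its low signal in these values was not tested.

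Over all members the difference in mean level between the subunits was highest in animal 7 at the early stage (-0.11, next -0.29). RPLP1 was highest in animal 1 at the late stage (10.80, next 10.55). RPL22 was lowest in animal 9 at the early stage (8.60, next 8.81). RPS24 was highest in animal 6 at the early stage (2.20, next 1.73). RPL9 was lowest in animal 8 at the middle stage (-2.32, next -0.60), and its second-period change without that animal was 0.43 in place of 0.65.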

How the results depend on the processing

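Counts over the 81 genes moved with scaling, slide, test and kind of probe, and the causes were not tested, except that fewer genes enter with only bright probes (56) or RefSeq targets (42). In the first period the 47 genes higher became 15 with quantile normalization, 27 with cyclic loess, 24 with normexp correction, 30 with only bright probes and 21 with RefSeq targets only, and the 13 lower became 8 with slide as a random block and 7 with RefSeq targets. Slide as a fixed block gave 0 higher and 0 lower by limma, with 18 genes at an unadjusted *P* below 0.05. That fit tells stage from slide only through animals 8 and 9. In the second period the 17 higher became 10 with 75th percentile scaling, 10 with series matrix values, 7 with slide as a random block, 11 with the methods' t-test and 10 with RefSeq targets, and the 50 lower became 32 with quantile normalization, 26 with normexp, 33 with only bright probes, 32 with slide as a random block and 23 with RefSeq targets. In the total period the 3 higher became 1 with 75th percentile scaling, normexp, series matrix values or RefSeq targets, 0 with slide as a random block and 15 with the methods' t-test, and the 14 lower became 23 with loess, 3 with normexp, 3 with slide as a random block, 23 with the methods' t-test and 4 with RefSeq targets. Over bright genes the difference between the subunits became 0.011 with slide fixed in the first period, -0.24 with RefSeq targets in the second, and turned to 0.022 with them in the total period.

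Leaving out each animal gave 42 to 48 higher and 11 to 14 lower in the first, 13 to 17 and 46 to 51 in the second, and 2 to 4 and 12 to 16 in the total period. The subunit difference then ranged over 0.27 to 0.35, -0.41 to -0.32 and -0.06 to -0.01, and over bright genes 0.35 to 0.44, -0.54 to -0.45 and -0.10 to -0.09. Without the replicate block, that is without pairing by animal, 47 genes were higher and 13 lower in the first, 18 and 50 in the second, and 3 and 15 in the total period.

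Among the genes followed under each alternative, the following changes turned sign and had passed the test in the main or the other setting. In the first period these were RPL11 (-0.040) and RPS20 (-0.093) with quantile normalization, RPLP2 (-0.00080), RPL11 (-0.23) and RPS20 (-0.19) with normexp, RPL13A (0.080), RPS26 (0.091), RPS27 (0.58), RPL18 (0.18), RPS24 (0.037) and RPS4Y1 (1.54) with slide fixed, and RPS14 (0.37) with the mean of its probes. In the second period these were RPL11 (0.25) and RPS20 (0.018) with quantile normalization, RPL11 (0.59), RPL29 (0.053), RPS10 (0.12), RPL22 (0.19), RPL22L1 (0.30), RPS20 (0.51), RPL36 (0.23) and RPS28 (0.26) with normexp, and RPS14 (-0.35) with the mean of its probes. RPL11 was -0.059 in the total period with series matrix values. The values with slide fixed rest on animals 8 and 9 to tell stage from slide. Middle-stage signal over background limits the genes without bright probes.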
